A study of Homo sapiens with 4 samples.

Results

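BOLA3 and 8 further genes of mitochondrial iron-sulfur cluster assembly were followed in 2 human hepatocellular carcinoma (HCC) cell lines with and without silencing of COP1. The 9 genes, out of 46427 in the tables, were BOLA1, BOLA3, GLRX5, NFU1, ISCA1, ISCA2, ISCU, IBA57 and NFS1. They form a list of known assembly factors that was chosen by the TPM of BOLA3, which had been lower with COP1-siRNA in both lines, so the values of BOLA3 in that contrast are a description and support nothing by themselves. All 9 were found in all 4 tables and passed the minimum TPM of 1 in both lines. Huh7 and HepG2, both established lines, were transfected with 20 nM of negative control siRNA (NC-siRNA, wild-type in the labels) or of siRNA against COP1 (COP1-siRNA, labelled COP1 knockdown), and RNA was taken after 48 h. There was 1 library per line and siRNA, 4 in all and of 1 labelled batch. COP1-siRNA was a single siRNA duplex, which limits it as a model of COP1 loss. No spread between replicates could be measured and no p-value is given.

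Iron-sulfur clusters are cofactors made of iron and sulfide that carry electrons or take part in catalysis in the respiratory chain, the citric acid cycle, lipoate synthesis and DNA repair. In mitochondria a cysteine desulfurase supplies the sulfur, a scaffold protein holds the first cluster, a chaperone and a glutaredoxin pass it on, and late-acting factors build or deliver the larger clusters that particular enzymes need. Liver cells are rich in mitochondria and in enzymes of this kind, and inherited defects of NFU1, BOLA3, IBA57 or ISCA2 cause multiple mitochondrial dysfunctions syndromes with loss of lipoylated enzymes.

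Poly(A)-selected RNA was sequenced, and TPM, a transcript abundance corrected for length and scaled to the same total in every library, was used for levels. Read numbers are unknown. The ratio of coverage to FPKM put the COP1-siRNA library at 1.13 times the depth of its control in Huh7 and 1.27 times in HepG2. COP1 itself measured 19.7 TPM in the Huh7 control and 6.18 TPM after silencing, a log2 fold change of −1.53 that was −0.75 on depth-scaled coverage. In HepG2 it measured 26.9 and 16.1 TPM, a change of −0.71 that was −0.45 on depth-scaled coverage. Mean coverage of COP1 before scaling was low, 8.12 and 2.97 in Huh7 and 9.80 and 7.51 in HepG2. As 1 is added before each ratio, the values on depth-scaled coverage understate the fall. Without it, 31.4% of the control TPM of COP1 was left in Huh7 and 59.9% in HepG2. The 8 liver markers listed, ALB and AFP among them, were at 9.13 TPM or more in every library, HNF4A in HepG2 being the lowest, and ALB was the highest in Huh7 at 8117 TPM with NC-siRNA. In HepG2 their median log2 fold change with COP1-siRNA was 0.35 and all 8 were above 0, where 51.7% of tested genes were below 0. In Huh7 the median was −0.10 and 7 of the 8 were below 0, against 50.1% of tested genes. Of 8 markers of blood, endothelial and stromal cells, 2 reached 1 TPM in Huh7 and 3 in HepG2, and PTPRC and DCN were at 0 in all 4 libraries. In Huh7 the 2 were CD68, at 58.2 and 56.4 TPM with NC-siRNA and COP1-siRNA, and PECAM1, at 5.08 and 7.36 TPM. In HepG2 the 3 were CD68 at 15.6 and 17.3 TPM, ACTA2 at 11.1 and 15.4 TPM and COL1A1 at 2.33 and 2.47 TPM. The part of these liver marker shifts in the values of either line below was not tested.

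Changes are log2 ratios of COP1-siRNA over NC-siRNA within a line after adding 1 to each TPM, a scale that understates changes of low genes. BOLA3, by which the list was chosen, had the largest change in both lines. The other 8 genes lay within 0.38 of 0, the widest being ISCA2 in HepG2 at −0.38 and BOLA1 in Huh7 at 0.37. On this scale 1 of the 9 genes, BOLA3, was at least 2-fold lower in Huh7, where 0.446% of 13000 tested genes were, and 0 of 9 were in HepG2, where 0.394% of 14456 were. In the other direction 0 of 9 were 2-fold higher in either line, against 0.638% of tested genes in Huh7 and 0.54% in HepG2. Lower in both lines at once were 0 of 9 at 2-fold, against 0.0501% of 11970 genes, and 1 of 9, BOLA3, at 1.5-fold, against 0.493%. With a 1.5-fold threshold BOLA3 alone was lower in each line, against 2.68% of tested genes in Huh7 and 1.87% in HepG2. No member was 1.5-fold higher in either line, against 2.8% of tested genes in Huh7 and 2.56% in HepG2. Because BOLA3 was picked for this contrast, nothing is read from its own calls. The 9 genes had a median log2 fold change of −0.04 in Huh7 and −0.05 in HepG2, and without BOLA3 the medians were −0.04 and −0.05 as well. All tested genes had medians of −0.001 and −0.008.

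**Figure D1:**
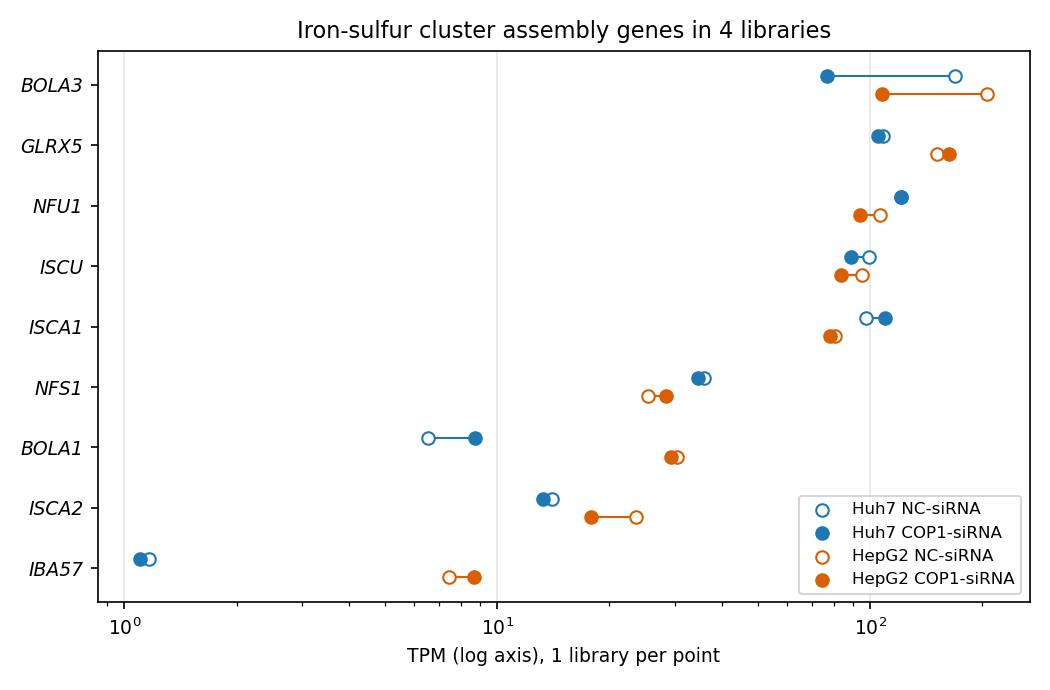
TPM (log axis) of the 9 assembly genes, 1 row per gene; blue points are Huh7 and orange points HepG2, open points NC-siRNA and filled points COP1-siRNA, each point being 1 library. BOLA3 shows the widest gap between open and filled points in both lines, 169 against 76.6 TPM for Huh7 and 206 against 108 TPM for HepG2, and IBA57 and BOLA1 show the widest gaps between the lines.

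BOLA3 (gene 388962) encodes a late-acting factor that works with GLRX5 and NFU1 in delivering clusters, above all to lipoate synthase and complexes I and II. Its locus is chr2:74135400-74147912 (GRCh38, minus strand). The Huh7 control held 169 TPM of BOLA3 and the silenced library 76.6 TPM. The HepG2 control held 206 TPM and the silenced library 108 TPM. Both COP1-siRNA libraries were thus below both control libraries, with 45.4% of the control TPM left in Huh7 and 52.3% left in HepG2. The log2 fold changes were −1.13 and −0.93. In rank these were number 34 from the lowest of 13000 tested genes in Huh7 and number 76 of 14456 in HepG2. Of 11970 genes tested in both lines, 8 were at or below BOLA3 in both lines, BOLA3 itself included. As these are bulk libraries, fewer cells with BOLA3 RNA and less of it per cell cannot be told apart. The mean coverage of the gene, which is not scaled for depth, was 442 and 236 in Huh7 and 490 and 320 in HepG2. It was lower with COP1-siRNA in both lines although those libraries were the deeper ones.

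The genes next to BOLA3 did not share its pattern. TET3, which lies on the opposite strand and ends 6 bases before BOLA3, had values of 0.24 (Huh7) and 0.26 (HepG2) on the log2 scale. MOB1A, the next protein-coding gene at higher coordinates, had 0.22 and 0.20. BOLA3-DT, a noncoding RNA that starts 69 bases away on the opposite strand, was between 1.05 and 4.39 TPM in the 4 libraries and had changes of 0.05 and −0.28. The 3 BOLA3 pseudogene copies in the tables, BOLA3P1, BOLA3P2 and BOLA3P3, were listed at 0 in every library.

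In the 3′ UTR of 1 of its 2 protein-coding transcripts, BOLA3 carries the 7-base sequence AGCAGTC. Earlier work on these data had found AGCAGTC among lowered genes, so its presence is a description and no independent support. The 3′ UTRs of 1 protein-coding transcript per gene (GENCODE 29, GRCh38) were read on the mRNA strand for AGCAGTC and for CCAAGTT and AGCATTC, the sites that pair with the seeds of the antisense and sense strands of the COP1-siRNA. None of the 3 sequences contains another. Among the 10579 genes tested in both lines that have a 3′ UTR, 9.45% hold AGCAGTC, 11.1% hold CCAAGTT and 10.4% hold AGCATTC. Of the 9 assembly genes, BOLA3 alone holds AGCAGTC, ISCA2 alone holds CCAAGTT and none holds AGCATTC in the transcript read. The 3′ UTR of BOLA3 is short, 195 bases against a median of 1098, and it was read in transcript ENST00000327428.9. ISCA2 holds CCAAGTT in 1 of its 3 protein-coding transcripts, the one read. ISCA1 holds AGCAGTC in 1 of its 3 protein-coding transcripts, though not in the one read. As TPM is given by gene, it cannot be said which of these transcripts were present. Both sites of the members are shown with up to 11 bases on each side and the site in capitals, for BOLA3 at chr2:74135505-74135533 on the minus strand, in the last of 4 exons, and for ISCA2 at chr14:74496175-74496203 on the plus strand.
BOLA3: attcttccctaAGCAGTCaccaaaaaatt
ISCA2: agaaactacaaCCAAGTTgattctggaag

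The genes whose pair of fold changes was most like that of BOLA3 were sought among 6671 genes with at least 10 TPM in all 4 libraries, by Euclidean distance over the 2 lines. In order they were ABT1, SEPTIN2, IARS1, HIF1A and ZDHHC7, at distances from 0.05 to 0.25 on the log2 scale. ABT1, an activator of basal transcription, measured 27.5 and 12.5 TPM in Huh7, control first, against 71.5 and 36.9 TPM in HepG2. SEPTIN2, a GTP-binding cytoskeletal protein, measured 288 and 137 TPM in Huh7 against 362 and 197 TPM in HepG2. On depth-scaled coverage the Huh7 changes of both were −0.97, short of 2-fold. The 5 genes spanned −1.18 to −0.93 (Huh7) and −0.93 to −0.70 (HepG2) on the log2 scale. None of them belongs to the iron-sulfur lists used here. In the 3′ UTR 4 of the 5, all but IARS1, hold AGCAGTC, against 9.45% of the genes read, and since they were picked for being lowered like BOLA3 and AGCAGTC was known from lowered genes of these data, this too is a description and no independent support. SEPTIN2 holds it at 2 places. These sites are printed so that they can be set beside that of BOLA3, with AGCAGTC in capitals. They lie at chr6:26599003-26599031 (plus strand) in ABT1, at chr2:241352715-241352743 and chr2:241353096-241353124 (plus strand) in SEPTIN2, at chr14:61747127-61747155 (plus strand) in HIF1A and at chr16:84975956-84975984 (minus strand) in ZDHHC7.
ABT1: tttctctgtttAGCAGTCacaggtgaggg
SEPTIN2, nearer the stop codon: gagaaaatcaaAGCAGTCataagctccag
SEPTIN2, farther from it: gggaggaaagtAGCAGTCatcatcttttt
HIF1A: tcattacctaaAGCAGTCtatttatattt
ZDHHC7: gggattctccaAGCAGTCatttcaggggg

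**Figure D2:**
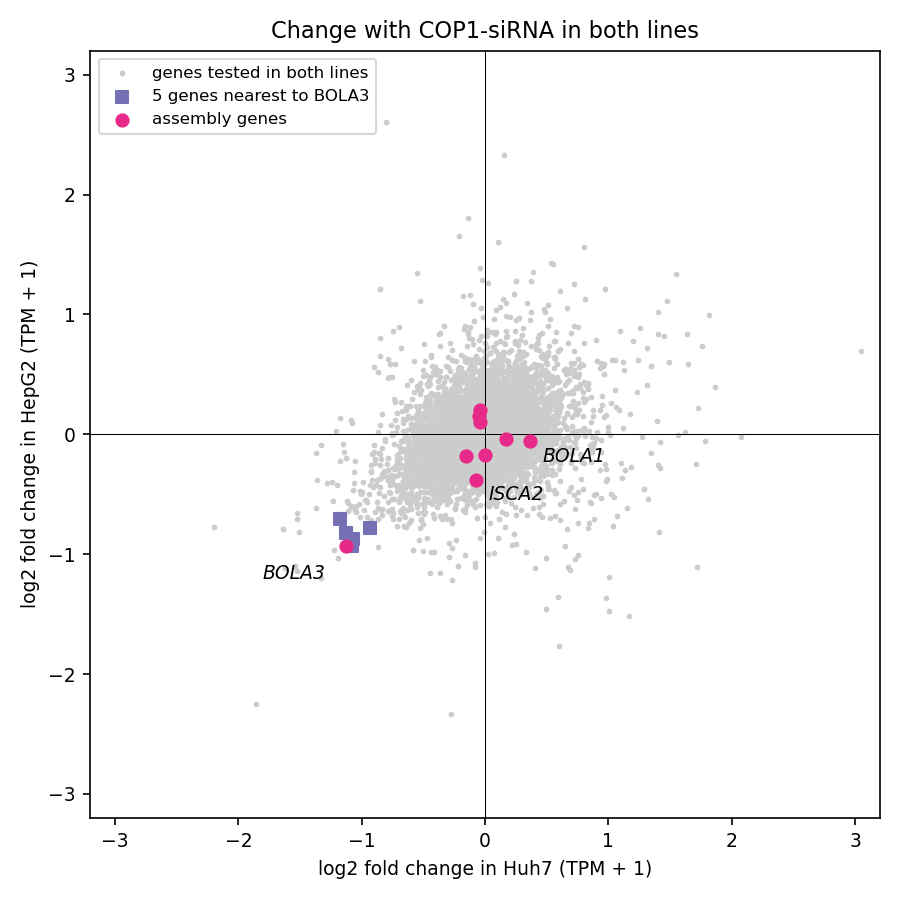
Log2 fold change with COP1-siRNA in Huh7 (x axis) and HepG2 (y axis) on the TPM + 1 scale for the 11970 genes tested in both lines (grey), the 9 assembly genes (pink circles) and the 5 genes nearest to BOLA3 (purple squares). BOLA3 sits at −1.13 and −0.93, toward the lower left, where 8 genes, itself included, lie at or below it on both axes, and the other 8 assembly genes lie within 0.38 of 0 on both axes.

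NFS1 and ISCU stand at the start of the pathway. NFS1 (gene 9054, chromosome 20, 35668052 to 35699352), the cysteine desulfurase that frees sulfur from cysteine, was at 35.8 and 34.5 TPM in Huh7 and at 25.3 and 28.3 TPM in HepG2. On the log2 scale its changes of −0.05 and 0.15 were small and of opposite sign. The start of NFS1 overlaps that of ROMO1 on the opposite strand, and as the strand setting of the counting is not given in the sources used here, reads of that stretch may count for either gene. ISCU (gene 23479, chromosome 12, 108561463 to 108569384), the scaffold on which the first cluster is built, was at 99.1 and 89.1 TPM in Huh7 and at 94.97 and 83.6 TPM in HepG2. On the log2 scale ISCU changed by −0.15 and −0.18.

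GLRX5 takes the cluster from the scaffold. GLRX5 (gene 51218, chromosome 14, 95535050 to 95544714), a monothiol glutaredoxin and known binding partner of BOLA3, was at 108 and 105 TPM in Huh7 and at 151 and 162 TPM in HepG2. The log2 fold changes were −0.04 and 0.10. The ratio of BOLA3 to GLRX5 TPM was 1.56 in the Huh7 control and 0.730 after silencing, and for HepG2 it was 1.36 and 0.664.

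ISCA1, ISCA2 and IBA57 act together in making the 4-iron clusters. ISCA1 (gene 81689, chromosome 9, 86264546 to 86282538) was at 97.2 and 110 TPM in Huh7 and at 80.3 and 78.1 TPM in HepG2. The changes were 0.17 and −0.04 on the log2 scale. The tables hold 7 ISCA1 pseudogene copies, all under 0.5 TPM in every library. ISCA2 (gene 122961, chromosome 14, 74493720 to 74497106) was at 14.04 and 13.3 TPM in Huh7 and at 23.6 and 17.9 TPM in HepG2. Its log2 fold change of −0.38 in HepG2 ranked number 897 from the lowest of the 14456 tested genes, while in Huh7 it was −0.07. IBA57 (gene 200205, chromosome 1, 228165804 to 228182257), a folate-binding protein, was at 1.16 and 1.10 TPM in Huh7 and at 7.404 and 8.65 TPM in HepG2. Changes of −0.04 and 0.20 followed on the log2 scale, and the Huh7 values lie just above the minimum TPM.

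NFU1 and BOLA1 complete the late-acting group. NFU1 (gene 27247, chromosome 2, 69395750 to 69439567), which hands clusters to lipoate synthase and respiratory complexes, was at 121 TPM in both Huh7 libraries and at 106 and 94.1 TPM in HepG2. The log2 fold changes were −0.003 and −0.17. BOLA1 (gene 51027, chromosome 1, 149899568 to 149900795), a relative of BOLA3 that also binds GLRX5, was at 6.54 and 8.72 TPM in Huh7 and at 30.4 and 29.2 TPM in HepG2. In Huh7 it had the highest log2 fold change of the 9 genes, 0.37, and in HepG2 it had −0.05. The ratio of BOLA3 to BOLA1 TPM was 25.8 in the Huh7 control and 8.78 after silencing, and for HepG2 it was 6.79 and 3.69.

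**Figure D3:**
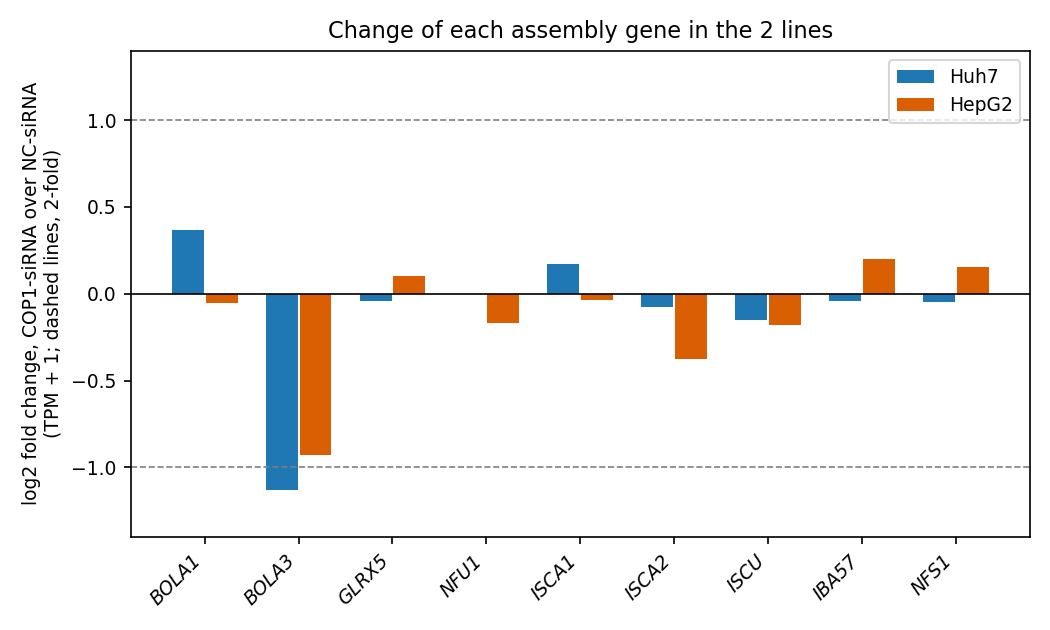
Log2 fold change of each assembly gene with COP1-siRNA over NC-siRNA (TPM + 1) in Huh7 (blue bars) and HepG2 (orange bars), from 1 library per condition, with dashed lines at 2-fold. BOLA3 crosses the lower line in Huh7 with −1.13 and ends just short of it in HepG2 with −0.93, and no other bar is longer than 0.38.

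The summed TPM of the 9 genes was 652 with NC-siRNA and 559 with COP1-siRNA in Huh7, and 725 and 610 in HepG2. Without BOLA3 the sums were 483 and 482 in Huh7 and 519 and 502 in HepG2, so nearly all of the difference in Huh7 and most of it in HepG2 lay in BOLA3. As BOLA3 was picked for being lower, its part in the difference is a description only. BOLA3 made up 25.9% of the sum in the Huh7 control and 13.7% with COP1-siRNA, and 28.4% and 17.7% in HepG2. With NC-siRNA, BOLA3 was the most abundant member in both lines. With COP1-siRNA it was below NFU1, ISCA1, GLRX5 and ISCU in Huh7 and below GLRX5 in HepG2. Neighbours in this order such as ISCU and ISCA1, at 99.1 and 97.2 TPM in the Huh7 control, changed places with COP1-siRNA, and without replicates it cannot be said that they differ.

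The lines themselves differed more than the siRNAs for several members, and this comparison was not used to choose the genes. Both Huh7 libraries were below both HepG2 libraries for 4 members, BOLA1, GLRX5, ISCA2 and IBA57, which is 44.4% of the 9 against 56.9% of 14695 genes tested with both siRNAs. Both were above for 3 members, NFU1, ISCA1 and NFS1, or 33.3% against 31.4%. The lines overlapped for BOLA3 and ISCU. IBA57 TPM was 6.37 times as high in HepG2 as in Huh7 with NC-siRNA and 7.84 times as high with COP1-siRNA. BOLA1 was 4.65 times as high with NC-siRNA and 3.35 times as high with COP1-siRNA. On the log2(TPM + 1) scale IBA57 and BOLA1 were at least 2-fold lower in Huh7 with NC-siRNA (27.9% of all genes), with COP1-siRNA (26% of all genes) and so with both, 22.2% of the members against 23.6% of all genes, a share near the background. No member was 2-fold higher in Huh7 with both siRNAs, against 12.8% of all genes. The other 7 members differed between the lines by less than 2-fold, from −0.71 (ISCA2) to 0.48 (NFS1) with NC-siRNA. All genes tested had a median of −0.37 there, and median-of-ratios scaling moved it to −0.06. Over the scalings and other settings tried the difference of BOLA3 between the control libraries ran from −0.39 to 0.05 and that of ISCU from −0.03 to 0.40, so neither has a settled direction. IBA57 kept between −2.57 and −1.42, and BOLA1 between −2.20 and −1.74.

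The other genes of the pathway were taken from lists of assembly factors and of proteins that carry or depend on clusters. For all these lists the background at 1.5-fold was 2.68% of tested genes lower and 2.8% higher in Huh7. In HepG2 it was 1.87% lower and 2.56% higher. Of 14 other mitochondrial assembly factors, none passed 1.5-fold in either line, and their medians were 0.05 in Huh7 and 0.04 in HepG2. HSPA9, the mitochondrial chaperone that moves clusters off ISCU, was at 310 and 309 TPM in Huh7 and at 318 and 313 TPM in HepG2. NDUFAB1, the acyl carrier protein that stabilises the NFS1 complex, had log2 fold changes of 0.05 and 0.02. GRPEL1, an exchange factor of HSPA9, had −0.13 and −0.07. GRPEL2, the other such factor, had the lowest value of the 14 in both lines, −0.53 in Huh7 (10.9 and 7.26 TPM) and −0.34 in HepG2 (27.4 and 21.4 TPM).

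None of 12 cytosolic assembly factors passed 1.5-fold either, with medians of 0.05 in both lines. GLRX3 and CIAO2B had log2 fold changes between 0.04 and 0.14. BOLA2 and BOLA2B, near-identical copies of a cytosolic relative of BOLA3 that works with GLRX3, had 0.14 and 0.02 in Huh7 and 0.24 and 0.07 in HepG2. Reads of these copies cannot be told apart with certainty.

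Of 15 mitochondrial proteins that hold clusters, none passed 1.5-fold, with a median of −0.07 in Huh7 and 0.01 in HepG2. SDHB, the iron-sulfur subunit of complex II, was at 252 and 291 TPM in Huh7 and at 260 and 281 TPM in HepG2. NDUFV1 of complex I had log2 fold changes of −0.07 and −0.10, and NDUFS8 of the same complex had −0.09 and 0.22. Lipoate synthesis and its protein targets are the branch most closely tied to BOLA3. None of its 8 genes passed 1.5-fold on the TPM + 1 scale, with medians of −0.04 and −0.02. LIPT2, an octanoyltransferase of lipoate synthesis, came nearest, with 5.85 and 3.67 TPM in HepG2 and a log2 fold change of −0.55, which was −0.67 and past 1.5-fold without the pseudocount. In Huh7 it measured 2.01 and 1.47 TPM, or −0.28. LIAS, the lipoate synthase, was at 4.53 and 4.48 TPM in Huh7 and at 5.56 and 4.83 TPM in HepG2, and is named outside the naming rule for its known link to BOLA3. The lipoylated enzymes DLAT, DLST and GCSH had log2 fold changes between −0.23 and 0.05.

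Of 24 cytosolic and nuclear iron-sulfur proteins, 22 were tested in Huh7 and 21 in HepG2. CDKAL1, a tRNA-modifying enzyme, was the only one past 1.5-fold in Huh7, from 10.8 to 6.41 TPM with a log2 fold change of −0.67. On depth-scaled coverage that value was −0.25, short of 1.5-fold. Its mean coverage was only 4.15 and 2.96 before scaling, so the added 1 makes that value small. The plain TPM ratio gave −0.76. In HepG2 CDKAL1 went from 21.8 to 15.1 TPM, or −0.50. AOX1, an aldehyde oxidase, was the only one past 1.5-fold in HepG2, from 2.26 to 4.82 TPM with 0.84 (1.10 without a pseudocount), against 12.4 and 12.5 TPM in Huh7. ABCE1, PPAT and DPH2 stayed between −0.16 and 0.15. The medians of the list were 0.01 and −0.01. Among all tested genes 2.68% were 1.5-fold lower in Huh7 and 2.56% were 1.5-fold higher in HepG2, so single calls in a list of this size are not read further.

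**Figure D4:**
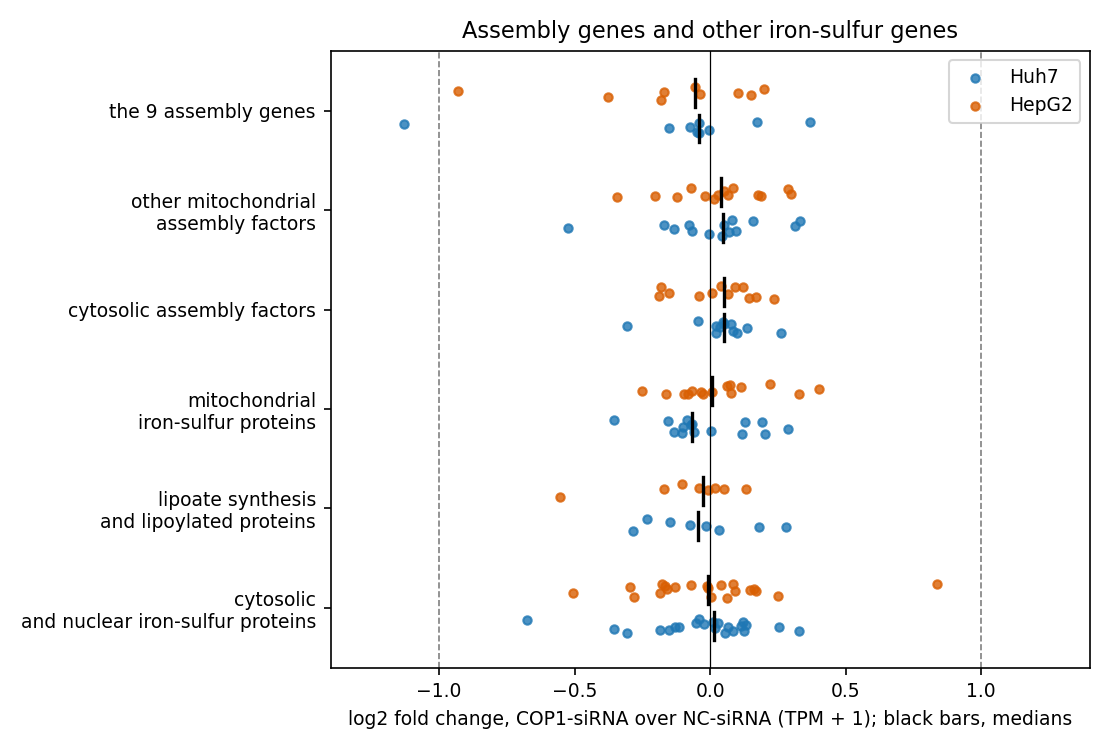
Log2 fold change with COP1-siRNA (TPM + 1) for each tested gene of the 9 assembly genes and of 5 further iron-sulfur lists, with Huh7 in blue, HepG2 in orange, black bars for medians and dashed lines at 2-fold. The medians all lie between −0.07 and 0.05, and BOLA3 is the only point past 2-fold.

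Across these 5 lists, 3 of 72 genes with a 3′ UTR read, or 4.17%, hold AGCAGTC there, namely DLST, BRIP1 and CDKAL1. The share was 9.45% among the 10579 genes tested in both lines, while the 72 include genes that were not tested, such as RSAD2. DLST, a subunit of the 2-oxoglutarate dehydrogenase complex, had changes of −0.23 (Huh7) and 0.02 (HepG2). BRIP1, a DNA helicase of cross-link repair, had 0.12 and −0.13. CDKAL1, with 2 copies, had −0.67, the lowest TPM-based value of the 5 lists in Huh7, and −0.50 in HepG2. Its Huh7 value was −0.25 on depth-scaled coverage. LIPT2, the lowest of the 5 lists in HepG2 at −0.55, holds no AGCAGTC in the 3′ UTR read. An effect of the site was not tested. The sites are shown for comparison with BOLA3, at chr14:74902464-74902492 (plus strand) in DLST, chr17:61682655-61682683 (minus strand) in BRIP1 and chr6:21232096-21232124 and chr6:21232231-21232259 (plus strand) in CDKAL1, again with AGCAGTC in capitals.
DLST: actgtgtaaccAGCAGTCacaggtctttt
BRIP1: taaaaattaacAGCAGTCtaatctagtga
CDKAL1, nearer the stop codon: tcctggactcaAGCAGTCctcctacctca
CDKAL1, farther from it: tcctagcctcaAGCAGTCttcttgcctca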

How the data were processed

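Per the labels, reads were trimmed with Trimmomatic 0.38, aligned to GRCh38 with HISAT2 2.1.0 and quantified with StringTie 2.1.3b, with FastQC 0.11.7 and edgeR also named; the annotation release is not given in the sources used here. For each library the authors deposited coverage (mean reads per base, not scaled for depth), FPKM and TPM by gene. The deposited TPM values sum to 1000000 per library; the deposited FPKM values are proportional to them. No read counts are given, so no interval could be computed. Rows of 1 gene number were summed. The name column holds no symbols, so gene numbers were matched to RefSeq (GRCh38.p14), with 44698 of 46427 matched and all 98 list genes found. Fold changes used a pseudocount of 1 for genes of at least 1 TPM in a library of the line, and a 2-fold threshold. The study used that threshold together with a p-value cut, which is left out here. It lists BOLA3 as lowered at least 2-fold in both lines, while the HepG2 value here was −0.93, short of 2-fold. With 1 library per condition nothing was tested. The members, lists and sites were chosen with earlier results of these data known. Genes named were the members, COP1, BOLA2 and BOLA2B, list genes past 1.5-fold in a line, the 3 of highest mean TPM per list, and the 5 nearest to BOLA3. Others, such as the genes beside BOLA3, the genes with AGCAGTC, LIAS, LIPT2 and GRPEL2, were chosen after their values were seen. For 3′ UTRs, the GENCODE 29 transcript with the best APPRIS tag, then the longest coding sequence, was taken. The fold computation was tested on simulated data. Python 3.11.15, numpy 2.4.6, pandas 2.3.3 and matplotlib 3.10.9 were used.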

Additional observations from a re-analysis of the deposited data

Results flagged for a closer look

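Of the members, 5 had log2 fold changes of opposite sign in the 2 lines, and so did 12 other genes for which both lines' values were compared. Those others were partly chosen after their values were seen. Of all tested genes, 50.1% in Huh7 and 51.7% in HepG2 were below 0. The share of all genes with opposite signs was not computed, so nothing about the members is read from these counts. None of the differences between the lines was tested, since each rests on 1 library per condition. The log2 fold change in Huh7 minus that in HepG2 was 0.42 for BOLA1, 0.21 for ISCA1, −0.15 for GLRX5, −0.20 for NFS1 and −0.24 for IBA57. The signs stayed opposite under all 8 alternatives for BOLA1, ISCA1 and IBA57, and under 6 of the 8 for GLRX5 and NFS1. Among the other genes the difference was −0.31 for NDUFS8, −0.12 for DLAT, 0.14 for GCSH, −0.36 for FDXR, 0.25 for BRIP1 and −0.36 for ALB, and for these 6 the signs stayed opposite under all 8. It was −0.76 for NDUFV2, −0.50 for HNF4A, −0.22 for AFP, 0.33 for BOLA3-DT, −0.25 for DLST and −0.0836 for DPH2, and for these 6 the signs were no longer opposite under 1 or 2 of the 8. The difference of NDUFV2 depended on the measure. Its log2 fold changes were −0.35 in Huh7 and 0.40 in HepG2 on TPM, but 0.01 and 0.02 on depth-scaled coverage.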

How the results depend on the processing

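No spread between replicates exists, so fold changes were judged by their side of 2-fold and medians by a shift of 0.1. The alternatives were a pseudocount of 0.1, the plain TPM ratio, FPKM, depth-scaled coverage, 3 scalings, repeated rows kept apart, other minimum TPM values and a 1.5-fold threshold. For BOLA3 the alternatives gave −1.14 to −1.04 (Huh7) and −0.98 to −0.90 (HepG2), each on the same side of 2-fold as reported. Of 144 alternative fold changes of members, 8 changed sign, all with a size of 0.05 or less as reported. The number of members past the threshold and lower in HepG2 went from 0 at 2-fold to 1 at 1.5-fold. The tested genes at least 2-fold lower and higher became, for Huh7 and then HepG2, 1.08% and 1.92%, 1.00% and 1.57% with a pseudocount of 0.1, and 1.19% and 1.98%, 1.06% and 1.76% with the plain ratio. They became 0.185% and 0.254%, 0.125% and 0.145% with FPKM, and 0.146% and 0.292%, 0.138% and 0.159% with depth-scaled coverage. Both measures are smaller than TPM, so the pseudocount weighs more on them. For these shares only FPKM and the minimum TPM were planned, and the other settings were chosen after seeing the data. With a minimum of 5 TPM, those higher became 0.344% in Huh7, and those lower and higher in HepG2 0.242% and 0.270%. The labels carry no replicate numbers to pair by, and a model with the line as a block, which the 4 libraries would allow, was not fitted. The depth in reads is unknown, so the counting error of low genes such as IBA57 could not be given.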

Other observations

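Between the lines, other genes of the pathway differed in the control libraries, and the genes named here were chosen after their values were seen. FDXR, the reductase that feeds electrons to the mitochondrial ferredoxins, was at 2.75 TPM in Huh7 and 29.04 TPM in HepG2 with NC-siRNA, and at 2.56 and 35.6 TPM with COP1-siRNA. Of the 15 mitochondrial proteins that hold clusters, 3 were at least 2-fold higher in Huh7 with NC-siRNA, against 14.7% of all genes (19.1% with median-of-ratios scaling), and 2 with COP1-siRNA. The 3 were NDUFS8, NDUFV1 and NDUFV2, all of complex I. The share was near the background. With NC-siRNA NDUFS8 was at 904 TPM in Huh7 and 265 TPM in HepG2.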
